A study of Homo sapiens with 18 samples.

Results

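SH-SY5Y, an established human neuroblastoma line, was differentiated with all-trans retinoic acid and then given an opioid ligand or water, and the names of the RNA-seq libraries carry a code at their end, _14.04, _0409 or _1109. The 5 libraries of code _14.04 were compared with the 7 libraries of code _0409, which makes 12 of the 18 libraries of the series. Membership was read from the library names, and the Control column of the count table that is written Control049 belongs to the library named Control_0409. The names of the 2 TRV130 libraries placed in code _0409 have a further digit in front of the code, which was read as a library number. The labels do not say what a code stands for, and nothing in them says whether libraries of one code came from 1 culture or several. A p-value here therefore speaks only of how far these libraries vary, and that variation may be technical.

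Every library came from wild-type cells kept for 7 days in 10 µM retinoic acid in medium with reduced serum, and exposure to water or ligand lasted 15 min in all of them. Code _14.04 held 1 library each of Morphine (193 nM), Metamorphine (169 nM), Beta-endorphin (200 nM), Naloxone (200 nM) and the water Control. Code _0409 held 1 library of each of the same treatments and 2 of TRV130 (200 nM). Morphine and beta-endorphin are opioid receptor agonists, TRV130 is a synthetic agonist of the µ-opioid receptor, and naloxone is an antagonist. The comparison was made with the treatment in the model, so it rests on the 5 treatments that both codes hold, while the TRV130 libraries add to the estimate of the spread.

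SH-SY5Y cells derive from the sympathoadrenal lineage and carry the transcription factor circuit of noradrenergic neurons, with HAND2 and GATA3 among its members. Retinoic acid slows their division and promotes neurite outgrowth and neuronal gene expression. In such cells the sterol regulatory element-binding proteins, coded by SREBF1 and SREBF2, drive the genes of cholesterol and fatty acid synthesis when membrane sterol is low, and sterol supplied by serum holds them down. Replication-dependent histone mRNAs lack a poly(A) tail and are made mainly in S phase. In bulk RNA, fewer cells of a type and less RNA per cell cannot be told apart.

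Total counts ran between 21211449 and 28732373 in code _14.04 and between 25465814 and 33123855 in code _0409. HAND2, a transcription factor of the noradrenergic lineage, had 721 ± 30.98 CPM in code _14.04 and 608 ± 57.96 CPM in code _0409 (SD, n = 5 and n = 7, as for all CPM values below), and TUBB3, a neuronal tubulin, had 618 ± 45.9 CPM in code _14.04 and 777 ± 109 CPM in code _0409. TH, the first enzyme of catecholamine synthesis, was nearly absent, with 11 counts over the libraries of code _14.04 and 27 over those of code _0409. Markers of other cell types were low, and MUC1 (log2 fold change -1.99, adjusted p = 0.00105) and VWF (-2.15, adjusted p = 0.00248) were the members called, both lower. The summed level of the 20 epithelial markers was 11.6 to 19.3 CPM in code _14.04 and 16.4 to 43.7 CPM in code _0409, and that of the 20 immune markers was 10.4 to 14.4 CPM and 10.9 to 30.99 CPM in the same order. Schwann and glial markers summed to 9.97 to 11.5 CPM in code _14.04 and 7.87 to 15.7 CPM in code _0409. The 22 endothelial, muscle and blood markers summed to 18.7 to 25.4 CPM in code _14.04 and 21.99 to 48.7 CPM in code _0409. PMP2, OLIG1, FABP7, HBB, HBG1 and AFP had 0 counts in all 12 libraries, and CDH1, KRT5, KRT14, CD3E, PECAM1 and CDH5 had 0 counts in code _14.04.

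The Control library of code _0409 stood apart from the rest. It held 20888 reads in 3647 protein-coding genes whose median count over the 18 libraries was 0, against 276 to 364 such reads in the libraries of code _14.04 and 471 to 3074 in the other 6 of code _0409, where the highest belonged to Naloxone. Mitochondrially encoded genes took 6.59 ± 1.88% of the counts in code _14.04 and 11.7 ± 3.99% in code _0409 (SD, n = 5 and n = 7). That difference had a two-sided exact permutation p of 0.0177, in a test that takes no account of treatment. Within the treatments that both codes hold, code _14.04 minus code _0409 was -7.51 percentage points in Control, -0.379 in Morphine, -3.69 in Metamorphine, 1.21 in Beta-endorphin and -5.46 in Naloxone, so that Beta-endorphin went the other way, and the highest shares of code _0409 were in the TRV130 libraries, which code _14.04 lacks. The mean GC content of the exons, weighted by counts, was 50.4 ± 0.272% in code _14.04 and 51.1 ± 0.326% in code _0409 (two-sided exact permutation p = 0.00505), lower in 4 of the 5 shared treatments and higher in Morphine, by 0.07 percentage points. The part that these library properties play in the differences below was not tested.

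Of 22975 genes tested, 3579 were higher in code _14.04 (15.6% of the genes tested) and 2885 were lower (12.6%) at an edgeR quasi-likelihood adjusted p under 0.05, the threshold for every call below. Where a gene list has about these shares of called members, its counts are given as values and not as a result about the list. Where leaving out 1 library moved a list's count of calls by over 1.5 times, the range over the 12 such fits is often given. It comes with the treatments concerned, for the library of either code unless a code is named. A small count without a range may have moved as far. Without Naloxone of either code, for instance, TGF-beta, BMP and Wnt targets called lower went from 3 to 0. Interferon and antigen presentation genes went from 3 to 1 called higher and from 3 to 0 called lower. Mean CPM values below are over all libraries of a code, whereas log2 fold changes come from the fit with treatment. At least 2-fold higher were 210 genes (0.914%) and at least 2-fold lower were 973 (4.24%), and for 3189 genes (13.9%) the values of the codes did not overlap. The median log2 fold change over all tested genes was 0.013. Among the called genes, 5304 (82.05%) differed in the called direction in each of the 5 treatments that both codes hold. The calls were made on these same libraries, so agreement of this kind is partly built in and is not separate evidence. Without the Control library of code _0409, 5962 of the 6464 called genes were called in the same direction and none had the opposite sign. Leaving out the Metamorphine or the Naloxone library of either code lowered the number of genes called higher to between 1226 and 1351 and the number called lower to between 1053 and 1237. Of the 178 called genes named below with values or in the closing observations, 124 stayed called whichever single library was left out, and the others are pointed out where they appear.

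**Figure D1:**
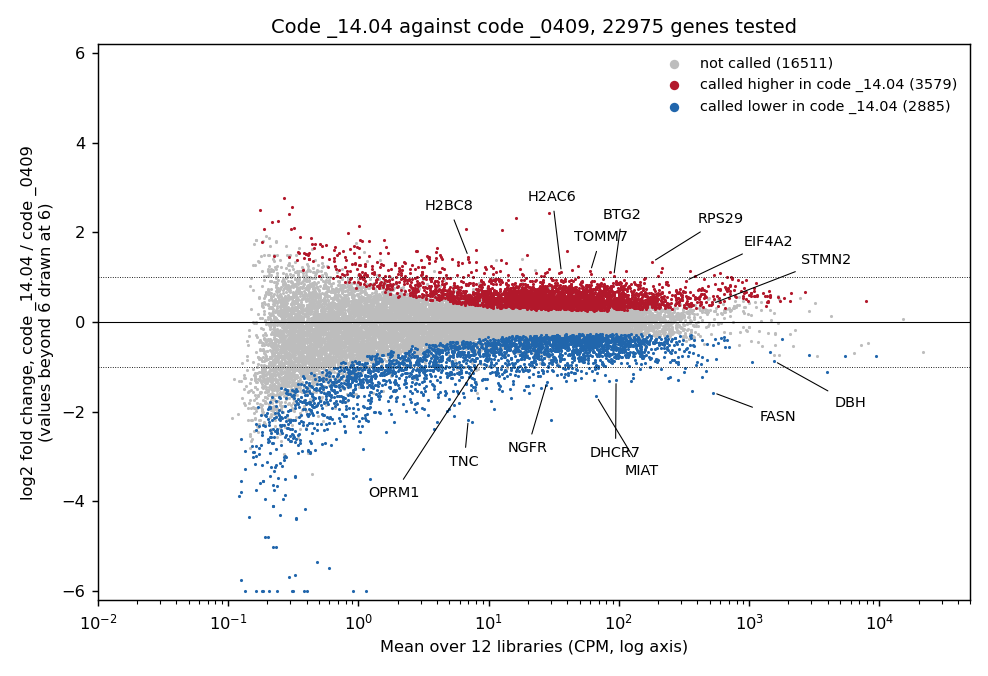
Each point is a gene, with its mean level over the 12 libraries (CPM, log axis) against its log2 fold change, code _14.04 over code _0409. Red genes were called higher (3579), blue genes lower (2885) and grey genes were not called (16511), the dotted lines mark 2-fold, and the points beyond 2-fold are mostly blue and lie at low levels.

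The genes at least 2-fold apart were of several kinds. Of the 210 genes at least 2-fold higher, 105 were processed pseudogenes and 42 were protein-coding. Of those pseudogenes, 51 are copies of ribosomal protein genes, whose reads cannot be told apart from those of their parents with certainty. Of the 973 genes at least 2-fold lower, 455 (46.8%) were protein-coding and 487 (50.1%) averaged under 1 CPM. Without the Control library of code _0409, 728 of those 973 were still at least 2-fold lower. With no 2-fold rule, 40 of 227 transcripts annotated inside introns on the sense strand were called lower (17.6%) and 6 higher (2.64%). Over all genes tested the shares were 12.6% lower and 15.6% higher.

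Exon length and GC content moved with the fold changes. Protein-coding genes called higher had a median exon length of 3774 bases and a median GC content of 43.0%, and those called lower had 6358 bases and 57.2%. Protein-coding genes were split into 5 bins of like size by GC content. In the lowest bin, 38.1% were called higher and 1.10% lower, while in the highest bin 7.48% were called higher and 26.0% lower. The counts were therefore also fitted with offsets for exon length and GC content, a choice made after seeing the data. With these offsets 3546 of the 6464 genes were called in the same direction, 139 had the opposite sign and 3 were called in the opposite direction. Medians of gene lists below are given without and with the offsets.

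**Figure D2:**
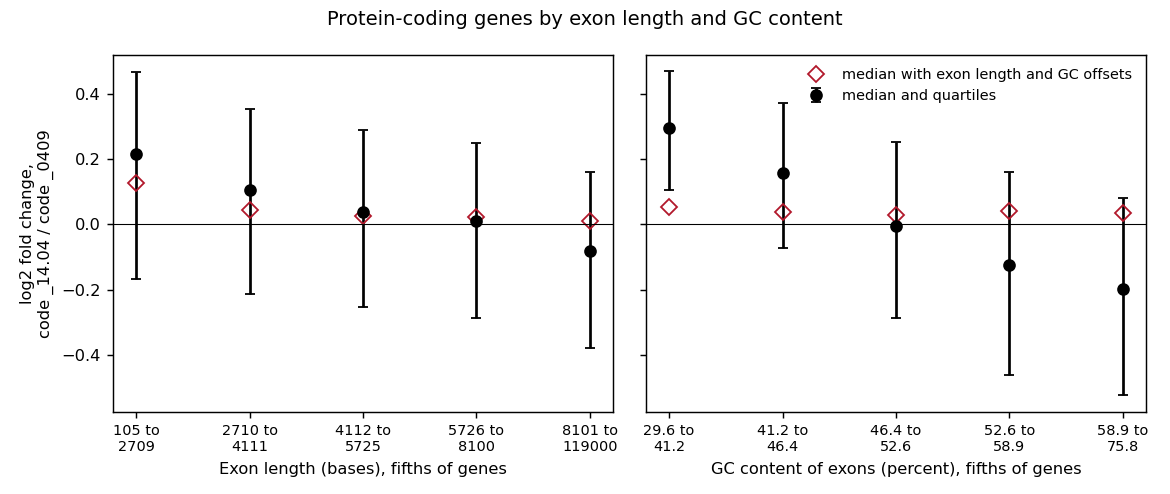
The left panel orders protein-coding genes by exon length (bases) and the right panel by GC content (percent), in 5 bins of like size. Filled points are medians of the log2 fold change with quartile bars and open diamonds are medians with the offsets. The filled medians fall from 0.21 to -0.083 along exon length and from 0.29 to -0.20 along GC content, and the diamonds stay between 0.011 and 0.13.

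Genes of cholesterol synthesis and uptake were lower in code _14.04. Of 24 members tested, 17 fell and 1 rose, with a median log2 fold change of -0.46, against 0.013 over all genes, and the mean difference was negative in each of the 5 matched treatments. The median was -0.59 with the offsets, under which 20 members were lower, and -0.45 without the Control library of code _0409. In a fit that included code _1109, that code had a median of -0.58 against the same libraries of code _0409, which both comparisons share.

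DNA letters upstream of members of this list are shown because the genes moved together, with those of SCD from the fatty acid list below. RefSeq windows on the GRCh38.p14 build were found for 18 sterol genes and were searched on both strands in the 250 bases before the gene start for CACCCCAC, the core of the sterol response element, for CCAAT, the letters that NF-Y reads, and for GGGCGG, the letters that SP1 reads. CACCCCAC was searched first, in a window that also held the bases just after the gene start. The other motifs, and the limit to the upstream bases, were added after its counts had been seen. Their complements are GTGGGGTG, ATTGG and CCGCCC. Where a gene has several windows, a match in any of them was counted. The windows of DHCR7 (chr11:71448394-71448643, minus strand), SCD (chr10:100346983-100347232, plus strand) and SREBF2 (chr22:41832855-41833104, plus strand) follow, 5′ to 3′, with every match to these letters or their complement in capitals. DHCR7 and SCD were lowered without overlap between the codes. Of the 17 lowered sterol genes, 12 had a window and could be searched, and among these 12 SREBF2 alone held CACCCCAC. Only these exact letters were matched, so variants of the element were not counted.
DHCR7: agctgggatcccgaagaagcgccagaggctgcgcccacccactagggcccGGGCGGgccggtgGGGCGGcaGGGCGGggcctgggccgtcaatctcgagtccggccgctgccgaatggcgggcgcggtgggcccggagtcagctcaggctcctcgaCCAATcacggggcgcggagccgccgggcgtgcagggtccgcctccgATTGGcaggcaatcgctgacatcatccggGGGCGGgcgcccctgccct
SCD: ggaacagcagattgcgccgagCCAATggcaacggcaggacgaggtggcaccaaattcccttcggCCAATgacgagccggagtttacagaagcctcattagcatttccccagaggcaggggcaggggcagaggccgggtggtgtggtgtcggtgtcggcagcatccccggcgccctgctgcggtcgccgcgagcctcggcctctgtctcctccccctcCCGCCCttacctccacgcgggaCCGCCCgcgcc
SREBF2: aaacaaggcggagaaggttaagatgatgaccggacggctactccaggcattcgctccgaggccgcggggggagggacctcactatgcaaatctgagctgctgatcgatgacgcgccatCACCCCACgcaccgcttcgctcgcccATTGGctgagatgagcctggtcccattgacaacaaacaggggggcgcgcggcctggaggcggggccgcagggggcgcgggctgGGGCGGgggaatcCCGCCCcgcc

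CCAAT was present upstream of 16 of the 18 sterol genes with a window, GGGCGG of 17 and CACCCCAC of 1. Of the 12 lowered ones, 11 held CCAAT and 11 GGGCGG. Because nearly all of the 18 held these letters, the counts could not have set lowered members apart from the others. Among 11702 protein-coding genes tested that have a window, 41.0% held CCAAT, 73.0% held GGGCGG and 3.28% held CACCCCAC. Of 19 genes of fatty acid synthesis and LXR with a window, 9 held CCAAT and 18 GGGCGG. These matches describe the letters and do not show binding.

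DHCR7, which acts at the end of the cholesterol pathway (ENSG00000172893), had 48.1, 55.8, 43.03, 53.8 and 48.8 CPM in the Control, Morphine, Metamorphine, Beta-endorphin and Naloxone libraries of code _14.04. In code _0409 it had 106 to 143 CPM, with a median of 133 CPM, and the lowest of these was above every value of code _14.04. DHCR7 was lower in code _14.04 by a factor of 2.45 (log2 fold change -1.29 ± 0.11 SE, adjusted p = 0.000484).

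Lanosterol synthase, LSS, had 76.8 ± 6.43 CPM in code _14.04 and 149 ± 9.34 CPM in code _0409 (log2 fold change -0.98 ± 0.093 SE, adjusted p = 0.000676). SREBF2, which codes the activator of this pathway, had 125 ± 12.1 CPM in code _14.04 and 216 ± 29.1 CPM in code _0409 (log2 fold change -0.80, adjusted p = 0.00147). INSIG1, which holds the precursor of that activator in the endoplasmic reticulum, also fell (log2 fold change -0.36, adjusted p = 0.0146). The 1 member that rose was PMVK, phosphomevalonate kinase, with 57.6 ± 7.41 CPM in code _14.04 and 38.5 ± 7.34 CPM in code _0409 (log2 fold change 0.65, adjusted p = 0.00273). SREBF2, INSIG1 and PMVK were named after their values were seen. When 1 library was left out, the call was lost, with an adjusted p of up to 0.0939 for INSIG1 without Naloxone of code _14.04.

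Genes of fatty acid synthesis and of the LXR sterol sensors fell in 10 of 21 cases and rose in 1, with a median of -0.34 (-0.29 with the offsets). FASN, the fatty acid synthase (ENSG00000169710, chr17:82078333-82098332), had 234, 294, 224, 269 and 212 CPM in the Control, Morphine, Metamorphine, Beta-endorphin and Naloxone libraries of code _14.04. In code _0409 it had 537 to 812 CPM, with a median of 765 CPM, so that the highest value of code _14.04 lay below the lowest of code _0409. FASN was lower in code _14.04 by a factor of 2.98 (log2 fold change -1.57 ± 0.13 SE, adjusted p = 0.000484). With the offsets it was -1.02 on the log2 scale, and without the Control library of code _0409 it was -1.698. With single libraries left out, 6 to 13 fatty acid and LXR genes were called lower (fewer without Naloxone).

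SCD, which makes oleic acid from stearic acid, had 252 ± 21.1 CPM in code _14.04 and 570.3 ± 98.98 CPM in code _0409 (log2 fold change -1.22 ± 0.12 SE, adjusted p = 0.000697). FADS2, a desaturase of polyunsaturated fatty acids, had 203 ± 11.8 CPM in code _14.04 and 403 ± 38.96 CPM in code _0409 (log2 fold change -1.01 ± 0.11 SE, adjusted p = 0.00079). SREBF1 had 161 ± 27.5 CPM in code _14.04 and 311 ± 38.6 CPM in code _0409 (log2 fold change -0.88 ± 0.12 SE, adjusted p = 0.0017), and its value was -0.42 with the offsets. ACACA and ACLY, which supply malonyl-CoA and acetyl-CoA, had log2 fold changes of -0.66 (adjusted p = 0.00443) and -0.59 (adjusted p = 0.00869). ME1, the cytosolic malic enzyme, was the 1 member that rose (log2 fold change 0.37, adjusted p = 0.037). These last 3 were named after their values were seen. With 1 library left out, calls were lost at an adjusted p of up to 0.0606 for ACLY without Naloxone of code _14.04, and 0.164 for ME1 without Metamorphine of code _14.04. The offsets ended the call of ME1 (log2 fold change 0.049).

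**Figure D3:**
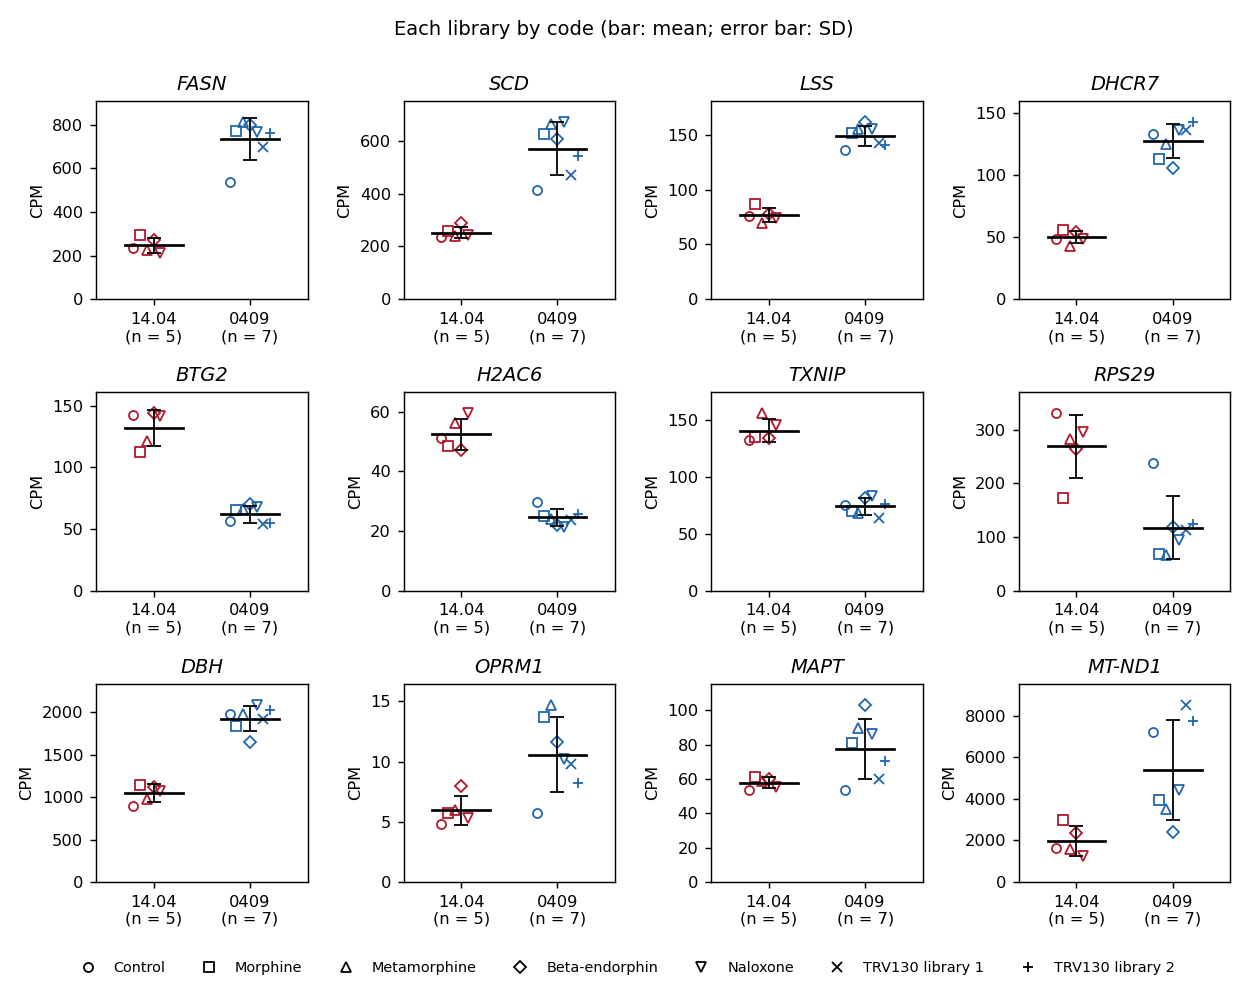
Each panel shows 1 gene in CPM, with code _14.04 on the left (red, n = 5) and code _0409 on the right (blue, n = 7). Symbols mark the treatment, the bar is the mean and the error bar the SD. For FASN, SCD, LSS, DHCR7, BTG2, H2AC6, TXNIP and DBH the codes do not overlap, while for RPS29, OPRM1, MAPT and MT-ND1 they do.

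Among nutrient-related genes both directions were found. TXNIP and its relative ARRDC4, arrestin-family genes induced when glucose metabolites are abundant, were higher. TXNIP had 132, 135, 156, 134 and 145 CPM in the 5 libraries of code _14.04 in the same order, and 63.4 to 83.3 CPM, with a median of 74.8 CPM, in code _0409, without overlap (log2 fold change 0.90 ± 0.10 SE, adjusted p = 0.00105). ARRDC4 had 11.6 ± 0.645 CPM in code _14.04 and 7.22 ± 0.58 CPM in code _0409 (log2 fold change 0.68 ± 0.12 SE, adjusted p = 0.00347). MLXIPL, which codes the glucose-responsive factor ChREBP, was at low levels and fell, with 0.968 ± 0.322 CPM in code _14.04 and 3.6 ± 1.86 CPM in code _0409 (log2 fold change -1.71 ± 0.39 SE, adjusted p = 0.01). In all, 4 of 9 genes of this group rose and 2 fell, with a median of 0.27 (0.26 with the offsets). Over the fits that leave out 1 library, 2 to 5 glucose-related genes were called higher (fewer without Metamorphine or Naloxone).

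Of 37 glycolysis and hypoxia genes, 14 fell and 7 rose, with a median of -0.18 (-0.12 with the offsets, under which 5 were lower and 6 higher). The glucose transporter SLC2A1 had 26.6 ± 2.94 CPM in code _14.04 and 44.05 ± 4.21 CPM in code _0409 (log2 fold change -0.74 ± 0.10 SE, adjusted p = 0.00166), and the phosphofructokinase PFKP had 83.4 ± 5.26 CPM in code _14.04 and 132 ± 5.601 CPM in code _0409 (log2 fold change -0.64 ± 0.09 SE, adjusted p = 0.00166). VEGFA, an angiogenic factor induced by hypoxia, had a log2 fold change of -0.70, adjusted p = 0.00284. MXI1, a partner of MAX, rose (log2 fold change 0.69, adjusted p = 0.00169). Among 28 targets of the amino acid response factor ATF4, 9 fell and PSPH alone rose (log2 fold change 0.33, adjusted p = 0.0209), with a median of -0.11 (-0.12 with the offsets). PSPH was named after its values were seen. The neutral amino acid transporters SLC7A5 and SLC1A5 had log2 fold changes of -1.04 (adjusted p = 0.000697) and -0.64 (adjusted p = 0.00413), and the alanyl-tRNA synthetase AARS1 had -0.42, adjusted p = 0.00621. When each library was left out in turn, 4 to 8 glycolysis and hypoxia genes were called higher (fewer without Naloxone), 6 to 15 glycolysis and hypoxia genes were called lower (fewer without Metamorphine, Beta-endorphin or Naloxone), and 4 to 9 ATF4 targets were called lower (fewer without Metamorphine, TRV130 of code _0409 or Naloxone). Leaving out 1 library raised the adjusted p to as much as 0.118 for PSPH without Metamorphine of code _0409. With the offsets VEGFA and PSPH did not pass the test, with log2 fold changes of -0.26 and 0.22.

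Of 25 genes of G1 and S phase, 5 fell and 2 rose, against 12.6% and 15.6% of all genes tested. Those that fell included the helicase subunits MCM2 (log2 fold change -0.57, adjusted p = 0.00225), MCM5 (-0.59, adjusted p = 0.00242) and MCM3 (-0.35, adjusted p = 0.0147) and the methylation cofactor UHRF1 (-0.60, adjusted p = 0.0031). The fifth was MCM7 (-0.30, adjusted p = 0.0457), and SLBP (0.28, adjusted p = 0.0416) was among those that rose. The median of this list was -0.14 (-0.18 with the offsets). Of 24 genes of G2 and M phase, 8 rose and 1 fell, with a median of 0.26. That median was 0.06 with the offsets, under which 2 rose, and 0.12 without the Control library of code _0409. The mean difference of these genes was -0.0905 in Beta-endorphin and 0.19 to 0.35 in the other shared treatments. CDK1, the mitotic kinase, had 55.4 ± 10.1 CPM in code _14.04 and 35.6 ± 6.24 CPM in code _0409 (log2 fold change 0.75 ± 0.11 SE, adjusted p = 0.00181), and HMGB2, a chromatin protein of dividing cells, had 293 ± 30.3 CPM in code _14.04 and 188 ± 50.1 CPM in code _0409 (log2 fold change 0.85 ± 0.12 SE, adjusted p = 0.00149). MKI67, the proliferation antigen, went the other way, with 53.2 ± 10.7 CPM in code _14.04 and 82.3 ± 27.3 CPM in code _0409 (log2 fold change -0.71 ± 0.14 SE, adjusted p = 0.00561). MCM7 and SLBP were named after their values were seen. In fits without 1 library, 3 to 12 G1 and S phase genes were called lower (fewer without Metamorphine of code _14.04, Beta-endorphin or Naloxone, more without Control), and 2 to 10 G2 and M phase genes were called higher (fewer without Morphine of code _0409, Metamorphine, TRV130 of code _0409 or Naloxone). Under the offsets 8 G1 and S phase genes were called lower. The adjusted p rose past the threshold when 1 library was left out, to as much as 0.0802 for MCM3 and 0.109 for MCM7 without Naloxone of code _14.04, and 0.186 for SLBP without Naloxone of code _0409. MCM7 and SLBP did not pass the test under the offsets, with log2 fold changes of -0.13 and 0.14.

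Inhibitors of the cell cycle and targets of p53 were higher in 10 of 20 cases and lower in 1, TNFRSF10B (log2 fold change -0.32, adjusted p = 0.0398, named after its values were seen). Their median was 0.37 (0.30 with the offsets and 0.24 without the Control library of code _0409), and the mean difference was positive in each of the 5 treatments. BTG2, an antiproliferative gene induced by p53 and by growth factors and also a member of the early response list (ENSG00000159388, chr1:203305491-203309602), had 142, 112, 121, 144 and 142 CPM in the libraries of code _14.04. In code _0409 it had 53.8 to 69.8 CPM, with a median of 65.4 CPM, and every library of code _14.04 was above all of these (log2 fold change 1.02 ± 0.10 SE, adjusted p = 0.000697). CDKN2C and CDKN1B, which code the inhibitors p18 and p27, had 105 ± 7.48 CPM in code _14.04 and 67.5 ± 7.79 CPM in code _0409 (log2 fold change 0.72 ± 0.095 SE, adjusted p = 0.0014) for CDKN2C and 134 ± 10.1 CPM in code _14.04 and 85.4 ± 7.83 CPM in code _0409 (log2 fold change 0.65 ± 0.11 SE, adjusted p = 0.00268) for CDKN1B. BBC3, which codes the pro-death protein PUMA, had a log2 fold change of 0.49, adjusted p = 0.00394. As single libraries were dropped, 5 to 11 inhibitors and p53 targets were called higher (fewer without Metamorphine or Naloxone). When 1 library was left out, the call was lost, with an adjusted p of up to 0.196 for TNFRSF10B without Metamorphine of code _14.04. The offsets ended the call of TNFRSF10B (log2 fold change -0.28).

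Replication-dependent histone genes rose where they passed the test. Of 54 genes in the list, 51 were matched to the table and 33 had enough counts to be tested. Of the 33, 16 rose and none fell, with a median of 0.76 (0.63 with the offsets and 0.79 without the Control library of code _0409). The mean difference lay between 0.59 and 0.95 in the 5 treatments. The summed level was 299.7 to 364 CPM in code _14.04 and 192 to 229 CPM in code _0409, without overlap. H2AC6 (ENSG00000180573, chr6:26124145-26139116) had 51.3, 48.4, 56.2, 47.2 and 59.5 CPM in the 5 libraries of code _14.04 and 21.5 to 29.8 CPM, with a median of 24.03 CPM, in code _0409 (log2 fold change 1.105 ± 0.11 SE, adjusted p = 0.000697).

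H2BC8 had 11.3 ± 1.304 CPM in code _14.04 and 3.94 ± 0.659 CPM in code _0409 (log2 fold change 1.46 ± 0.16 SE, adjusted p = 0.000935), and H2AC11 and the linker histone H1-2 had log2 fold changes of 1.17 (adjusted p = 0.00125) and 1.07 (adjusted p = 0.00219). Histone genes are near-identical copies of each other, so the division of reads among them is uncertain. Whether the library kit selected poly(A) RNA is not given in the sources used here. Structured RNAs without a poly(A) tail, measured beside the histone genes, had 1 of 8 called higher (12.5%, against 15.6% of all genes tested). It was RN7SK, with 3.25 ± 1.46 CPM in code _14.04 and 2.92 ± 2.47 CPM in code _0409 (log2 fold change 1.11, adjusted p = 0.0222). The 8 had a median of 0.29 (0.31 with the offsets). With 1 library left out, calls were lost at an adjusted p of up to 0.0859 for RN7SK without Naloxone of code _14.04.

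**Figure D4:**
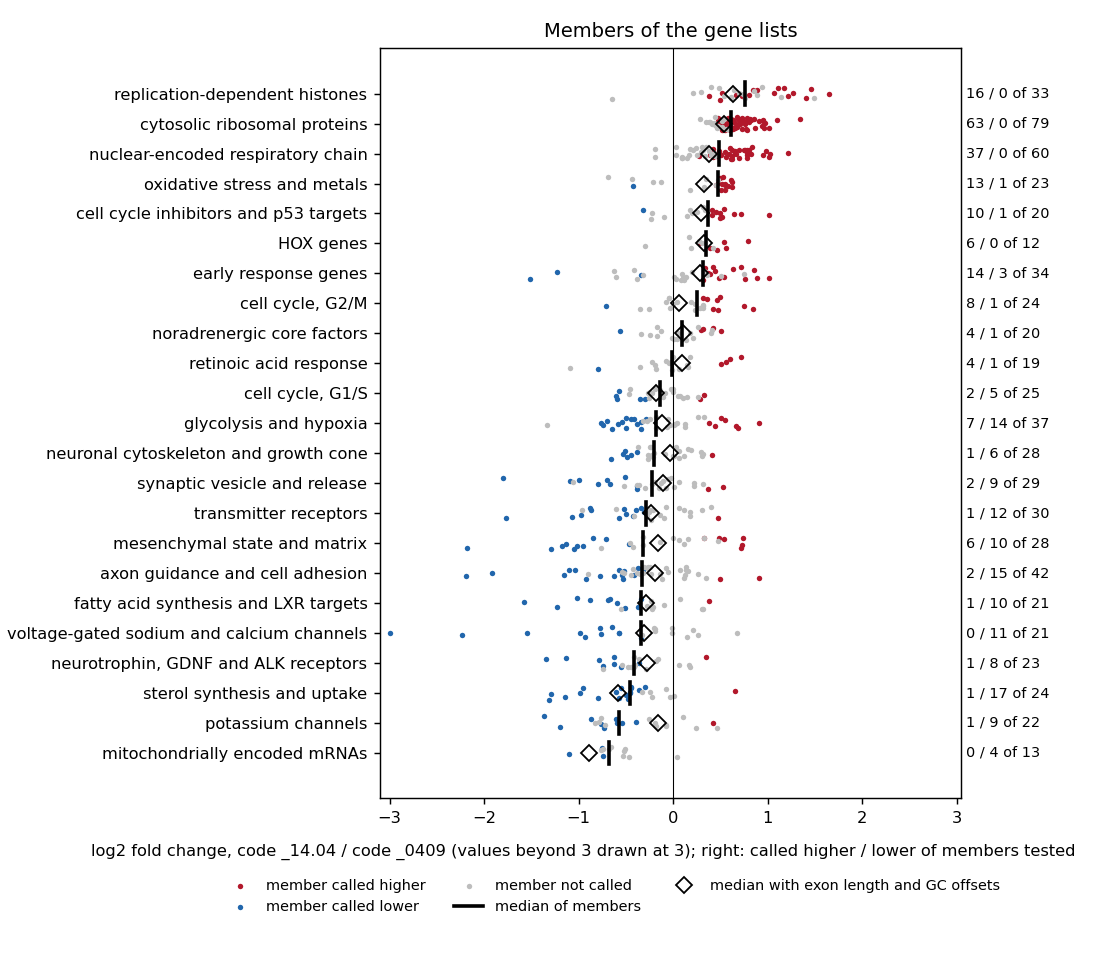
Each row is a gene list and each point a tested member, at its log2 fold change of code _14.04 over code _0409 (red called higher, blue called lower, grey not called). The black bar is the median, the diamond the median with offsets for exon length and GC content, and the numbers on the right count members called higher, lower and tested. Histone, ribosomal protein and respiratory chain genes lie to the right of 0, and sterol, potassium channel and mitochondrially encoded genes to the left.

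Early response genes, which are switched on within minutes of a stimulus, were higher in 14 of 34 cases and lower in 3. The median was 0.32 (0.28 with the offsets, 0.15 without the Control library of code _0409). The mean difference was -0.022 in Metamorphine and 0.065 in Morphine, against 0.33 in Control, 0.19 in Beta-endorphin and 0.28 in Naloxone. All groups shared the 15 min of exposure. JUNB had 465 ± 54.5 CPM in code _14.04 and 337 ± 49.7 CPM in code _0409 (log2 fold change 0.54 ± 0.10 SE, adjusted p = 0.00363), and DUSP6, a phosphatase that ends ERK signalling, had 255 ± 19.1 CPM in code _14.04 and 176 ± 24.4 CPM in code _0409 (log2 fold change 0.64 ± 0.11 SE, adjusted p = 0.00321). FOS had 452, 228, 263, 324 and 328 CPM in the libraries of code _14.04, highest in the Control library, and 153 to 209.5 CPM, with a median of 167 CPM, in code _0409, without overlap (log2 fold change 0.88 ± 0.16 SE, adjusted p = 0.00394). MYC, the growth-promoting factor, was low in both codes and fell, with 3.51 ± 0.38 CPM in code _14.04 and 8.08 ± 1.06 CPM in code _0409 (log2 fold change -1.23 ± 0.15 SE, adjusted p = 0.00123). DUSP2 (log2 fold change -1.51, adjusted p = 0.00928) and NR4A1 (-0.34, adjusted p = 0.0456, and 0.028 with the offsets, where it was not called) were the other members that fell. FOS, DUSP2 and NR4A1 were named after their values were seen. With single libraries left out, 4 to 11 early response genes were called higher (fewer without Morphine of code _0409, Metamorphine, TRV130 of code _0409, Beta-endorphin or Naloxone). Leaving out 1 library raised the adjusted p to as much as 0.141 for NR4A1 without Naloxone of code _14.04.

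Genes of the ribosome were higher, but not in the Control pair. Of 79 cytosolic ribosomal protein genes, 63 rose and none fell, with a median of 0.61 (0.54 with the offsets, under which 45 rose). Without the treatment term 15 rose. The mean difference was -0.15 in the Control pair, 0.73 in Morphine, 1.09 in Metamorphine, 0.58 in Beta-endorphin and 0.98 in Naloxone. The summed levels overlapped between the codes, at 73460 to 96260 CPM in code _14.04 and 42400 to 108700 CPM in code _0409. RPS29, a small-subunit protein gene, had 331, 172, 282, 265 and 296 CPM in code _14.04 and 65.7 to 238 CPM, with a median of 113 CPM, in code _0409, where the Control library was the highest (log2 fold change 1.34 ± 0.19 SE, adjusted p = 0.00166). Over the fits that leave out 1 library, 23 to 79 ribosomal protein genes were called higher (fewer without Metamorphine or Naloxone).

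Nuclear genes of the respiratory chain followed the same pattern, with 37 of 60 risen, none fallen and a median of 0.49 (0.38 with the offsets). Their mean difference was -0.089 in the Control pair and 0.40 to 0.81 in the other 4 treatments. ATP5F1E, a subunit of ATP synthase, had 304 ± 62.8 CPM in code _14.04 and 151 ± 73.6 CPM in code _0409 (log2 fold change 1.21 ± 0.18 SE, adjusted p = 0.00181), and NDUFS6 of complex I had 50.7 ± 7.42 CPM in code _14.04 and 29.8 ± 10.4 CPM in code _0409 (log2 fold change 0.95 ± 0.13 SE, adjusted p = 0.0017). TOMM7, a small subunit of the mitochondrial import pore, had 86.6 ± 10.97 CPM in code _14.04 and 41.8 ± 11.9 CPM in code _0409, without overlap (log2 fold change 1.13 ± 0.12 SE, adjusted p = 0.000935). Code _1109 had a median of -0.64 for the ribosomal protein genes and -0.60 for the respiratory chain genes against the same code _0409 libraries. When each library was left out in turn, 19 to 50 respiratory chain genes were called higher (fewer without Metamorphine or Naloxone).

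Of the 13 mitochondrially encoded mRNAs, 4 fell and none rose, with a median of -0.68 (-0.89 with the offsets, under which 9 fell). The mean difference was -1.34 in the Control pair, -0.77 in Metamorphine and -1.29 in Naloxone, against 0.0054 in Morphine and 0.25 in Beta-endorphin. MT-ND1, a complex I subunit, had 1653, 2985, 1602, 2371 and 1234 CPM in code _14.04 and 2388 to 8532 CPM, with a median of 4414 CPM, in code _0409, where both TRV130 libraries and the Control library were the highest (log2 fold change -1.104 ± 0.28 SE, adjusted p = 0.0158). MT-CYB, MT-ND4 and MT-ND5 had log2 fold changes between -0.76 and -0.74, with adjusted p from 0.043 to 0.0481. In fits without 1 library, 0 to 10 mitochondrial mRNAs were called lower (fewer without Control, Metamorphine, TRV130 of code _0409 or Naloxone, more without Morphine or Beta-endorphin). The adjusted p rose past the threshold when 1 library was left out, to as much as 0.0696 for MT-ND1, 0.156 for MT-CYB and 0.165 for MT-ND4 without Naloxone of code _14.04, and 0.218 for MT-ND5 without Control of code _14.04.

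**Figure D5:**
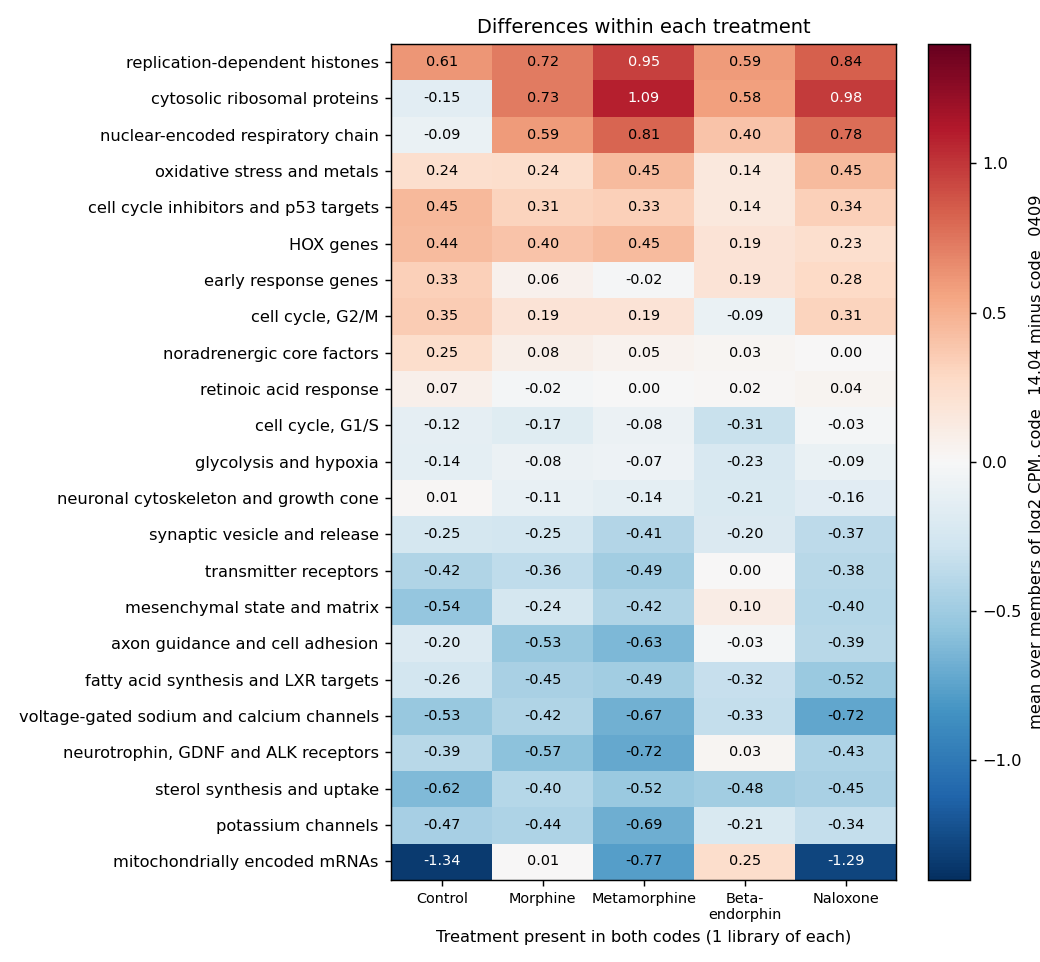
Rows are gene lists and columns the 5 treatments with 1 library in each code; the colour and number give the mean over tested members of log2 CPM in code _14.04 minus that in code _0409. Sterol, sodium and calcium channel, potassium channel and histone genes keep 1 sign across the row, while ribosomal protein and respiratory chain genes are below 0 in the Control column and above 0 elsewhere.

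Of 20 transcription factors of the noradrenergic core, 15 did not pass the test, and nor did 16511 of all 22975 genes tested. Of the 20, 4 rose and 1 fell, against 15.6% and 12.6% of all genes tested. Their median was 0.092 (0.11 with the offsets). Without the Control library of code _0409 the median was -0.028, below 0, and 4 were higher and 3 lower. HAND2, whose levels are given above, had a log2 fold change of 0.31, adjusted p = 0.0473, and MEIS2, SATB1 and TBX2 had log2 fold changes of 0.42, 0.51 and 0.30. SATB1 had 0.27 without the Control library of code _0409. LMO1, a neuroblastoma-associated cofactor, fell (log2 fold change -0.56, adjusted p = 0.00975). PHOX2A, GATA3 and ISL1 did not pass the test, with log2 fold changes of 0.21, -0.13 and -0.17. As single libraries were dropped, 0 to 4 core factors were called higher (fewer without Morphine, Metamorphine, TRV130 of code _0409, Beta-endorphin or Naloxone). When 1 library was left out, calls were lost, with an adjusted p of up to 0.175 for HAND2 without Naloxone of code _0409, 0.0634 for MEIS2 without Metamorphine of code _0409, 0.107 for SATB1 without Naloxone of code _14.04, and 0.129 for TBX2 without Beta-endorphin of code _0409.

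Of 13 genes of noradrenaline handling, 3 rose and 3 fell, against 15.6% and 12.6% of all genes tested, with a median of -0.018 (0.21 with the offsets). DBH, which converts dopamine to noradrenaline (ENSG00000123454, chr9:133635348-133659344), had 898, 1146, 976, 1125 and 1077 CPM in the libraries of code _14.04. In code _0409 it had 1648 to 2089 CPM, with a median of 1978 CPM, and the codes did not overlap (log2 fold change -0.87 ± 0.13 SE, adjusted p = 0.00204, -0.69 with the offsets). The noradrenaline transporter SLC6A2 had 72.02 ± 10.4 CPM in code _14.04 and 106 ± 13.1 CPM in code _0409 (log2 fold change -0.59 ± 0.10 SE, adjusted p = 0.00279), and the vesicular transporter SLC18A1 had a log2 fold change of -0.41, adjusted p = 0.0125. In the other direction, PTS and GCH1, which make the tetrahydrobiopterin cofactor, had log2 fold changes of 0.69 (adjusted p = 0.00273) and 0.47 (adjusted p = 0.0141). MAOB, which breaks down amines, had 11.5 ± 0.722 CPM in code _14.04 and 7.12 ± 0.865 CPM in code _0409 (log2 fold change 0.67 ± 0.12 SE, adjusted p = 0.00384). GCH1 and SLC18A1 were named after their values were seen. With 1 library left out, calls were lost at an adjusted p of up to 0.0703 for SLC18A1 without Metamorphine of code _14.04, and 0.0807 for GCH1 without Naloxone of code _0409. With the offsets GCH1 did not pass the test (log2 fold change 0.21).

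Retinoic acid was present in every library. Of 19 genes of the retinoic acid response, 4 rose (21.1%) and 1 fell (5.26%), against 15.6% and 12.6% of all genes tested. Their median was -0.01 (0.10 with the offsets). RARB, the retinoic acid receptor beta, had 116 ± 14.03 CPM in code _14.04 and 66.1 ± 14.2 CPM in code _0409 (log2 fold change 0.72 ± 0.14 SE, adjusted p = 0.00436), and CYP26A1, the enzyme that degrades retinoic acid, had 387 ± 54.5 CPM in code _14.04 and 251 ± 36.9 CPM in code _0409 (log2 fold change 0.56 ± 0.13 SE, adjusted p = 0.0118). CRABP2 (log2 fold change 0.51, adjusted p = 0.0248), which binds retinoic acid in the cell, also rose and was named after its values were seen. STRA6, a membrane transporter for retinol, fell, with 102 ± 27.3 CPM in code _14.04 and 191 ± 41.2 CPM in code _0409 (log2 fold change -0.80 ± 0.17 SE, adjusted p = 0.00733). HOX genes rose in 6 of 12 tested cases and fell in none, with a median of 0.35 (0.33 with the offsets). HOXD8 had 114 ± 10.4 CPM in code _14.04 and 68.6 ± 6.61 CPM in code _0409 (log2 fold change 0.80 ± 0.11 SE, adjusted p = 0.00142), HOXC4 had 59.9 ± 4.01 CPM in code _14.04 and 42.3 ± 3.37 CPM in code _0409 (log2 fold change 0.54 ± 0.10 SE, adjusted p = 0.00394), and HOXC8 and HOXC6 had log2 fold changes of 0.56 and 0.46. With single libraries left out, 2 to 4 retinoic acid genes were called higher (fewer without Metamorphine or Naloxone), and 2 to 6 HOX genes were called higher (fewer without Metamorphine). Leaving out 1 library raised the adjusted p to as much as 0.0569 for CYP26A1 without Beta-endorphin of code _0409, and 0.102 for CRABP2, 0.0699 for HOXC8 and 0.0673 for HOXC6 without Metamorphine of code _14.04. STRA6 did not pass the test under the offsets (log2 fold change -0.39).

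The opioid receptors are the targets of the ligands. OPRM1, the µ-opioid receptor (ENSG00000112038, chr6:154010496-154246867), had 4.79, 5.73, 5.94, 7.99 and 5.31 CPM in the Control, Morphine, Metamorphine, Beta-endorphin and Naloxone libraries of code _14.04. In code _0409 it had 5.71 to 14.7 CPM, with a median of 10.2 CPM, and the lowest value, in the Control library, lay within the range of code _14.04. OPRM1 was lower in code _14.04 (log2 fold change -0.87 ± 0.17 SE, adjusted p = 0.00492), and the value was -1.04 without the Control library of code _0409. OPRD1, the δ-opioid receptor, had 55.1 ± 10.8 CPM in code _14.04 and 69.4 ± 8.91 CPM in code _0409 (log2 fold change -0.43 ± 0.12 SE, adjusted p = 0.0218). OPRL1, the nociceptin receptor, had 17.96 ± 1.86 CPM in code _14.04 and 14.2 ± 1.37 CPM in code _0409 and did not pass the test (log2 fold change 0.31, adjusted p = 0.0787). OPRK1, the κ-opioid receptor, had 1 count over the 5 libraries of code _14.04 and 11 over the 7 of code _0409, of which 7 were in the Control library and 4 in Naloxone, and was not tested. The adjusted p rose past the threshold when 1 library was left out, to as much as 0.0978 for OPRD1 without Metamorphine of code _14.04. The offsets ended the call of OPRD1 (log2 fold change -0.10).

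Of 21 sodium and calcium channel genes, 11 fell and none rose, with a median of -0.34 (-0.31 with the offsets, under which 6 fell and 1 rose). CACNA1B, the N-type calcium channel that opioid receptors inhibit, had 20.2 ± 3.66 CPM in code _14.04 and 38.01 ± 7.07 CPM in code _0409 (log2 fold change -0.94 ± 0.12 SE, adjusted p = 0.00125). CACNA1E and CACNA1G, the R-type channel and a T-type channel, had 0.583 ± 0.129 CPM in code _14.04 and 2.81 ± 0.393 CPM in code _0409 (log2 fold change -2.23 ± 0.23 SE, adjusted p = 0.000697) for CACNA1E and 1.37 ± 0.196 CPM in code _14.04 and 4.18 ± 0.64 CPM in code _0409 (log2 fold change -1.55 ± 0.18 SE, adjusted p = 0.00105) for CACNA1G. CACNA1A was called lower, but it had 1 count in code _14.04, and 276 of its counts in code _0409 came from the Control library, with 1 to 29 in each of the others. Of 22 potassium channel genes, 9 fell and KCNK1 rose (log2 fold change 0.42, adjusted p = 0.0474), with a median of -0.57 that was -0.16 with the offsets, under which 4 fell and 3 rose. KCNQ3, a subunit of the M-current channel, had 1.33 ± 0.179 CPM in code _14.04 and 2.94 ± 1.21 CPM in code _0409 (log2 fold change -1.37 ± 0.22 SE, adjusted p = 0.00237), and KCND1 had a log2 fold change of -0.73, adjusted p = 0.00678. KCNK1 was named after its values were seen. Over the fits that leave out 1 library, 7 to 11 sodium and calcium channel genes were called lower (fewer without Naloxone), and 4 to 9 potassium channel genes were called lower (fewer without Metamorphine or Naloxone). When 1 library was left out, the call was lost, with an adjusted p of up to 0.179 for KCNK1 without Beta-endorphin of code _14.04. With the offsets KCNK1 did not pass the test (log2 fold change 0.30).

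Of 30 transmitter receptor genes, 12 fell and ADRA2C rose (log2 fold change 0.48, adjusted p = 0.00793), with a median of -0.29 (-0.24 with the offsets). The mean difference was 6.8e-05 in Beta-endorphin and -0.49 to -0.36 in the other shared treatments. The dopamine receptor DRD2 had 7.82 ± 0.477 CPM in code _14.04 and 16.1 ± 1.95 CPM in code _0409 (log2 fold change -0.98 ± 0.12 SE, adjusted p = 0.00125), and the NMDA receptor subunit GRIN1 had 14.98 ± 3.096 CPM in code _14.04 and 33.3 ± 6.64 CPM in code _0409 (log2 fold change -1.07 ± 0.16 SE, adjusted p = 0.00183). CHRNB4, a subunit of ganglionic nicotinic receptors, had a log2 fold change of -0.88, adjusted p = 0.00257. Of 29 synaptic vesicle genes, 9 fell and 2, SNAP25 (log2 fold change 0.37, adjusted p = 0.019) and RIMS1 (0.53, adjusted p = 0.0372), rose. CPLX2 and UNC13A, parts of the release machinery, had log2 fold changes of -0.67 and -0.79, with adjusted p of 0.00142 and 0.00145. The median of that list was -0.23 (-0.10 with the offsets). ADRA2C, SNAP25 and RIMS1 were named after their values were seen. When each library was left out in turn, 5 to 12 receptor genes were called lower (fewer without Metamorphine or Naloxone), and 5 to 12 vesicle genes were called lower (fewer without Metamorphine or Naloxone). Under the offsets 5 vesicle genes were called lower. With 1 library left out, calls were lost at an adjusted p of up to 0.0538 for ADRA2C without Naloxone of code _14.04, 0.0876 for SNAP25 without Metamorphine of code _0409, and 0.135 for RIMS1 without Beta-endorphin of code _14.04. SNAP25 did not pass the test under the offsets (log2 fold change 0.043).

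Among guidance genes and growth factor receptors, falls also outnumbered rises. Of 42 axon guidance and adhesion genes, 15 fell and 2, NCAM2 (log2 fold change 0.91, adjusted p = 0.00655) and SEMA3C (0.49, adjusted p = 0.0106), rose, with a median of -0.33 (-0.20 with the offsets). The mean difference was -0.031 in Beta-endorphin and -0.63 to -0.195 in the other shared treatments. The semaphorin receptors PLXNA2 and PLXNA4 had log2 fold changes of -1.04 (adjusted p = 0.00125) and -1.15 (adjusted p = 0.00175). DCC, the netrin receptor, was low in both codes, with 0.416 ± 0.141 CPM in code _14.04 and 1.67 ± 0.462 CPM in code _0409 (log2 fold change -2.19 ± 0.29 SE, adjusted p = 0.00142). Of 23 neurotrophin, GDNF and ALK receptor genes, 8 fell and ERBB2 rose (log2 fold change 0.34, adjusted p = 0.0427), with a median of -0.42 (-0.28 with the offsets). In Beta-endorphin their mean difference was 0.025, against -0.72 to -0.39 in the other shared treatments. NGFR, the p75 neurotrophin receptor, had 14, 14.98, 12.4, 21.1 and 14.6 CPM in the libraries of code _14.04 and 27.4 to 49.8 CPM, with a median of 32.1 CPM, in code _0409, without overlap (log2 fold change -1.34 ± 0.19 SE, adjusted p = 0.0016). NCAM2, SEMA3C and ERBB2 were named after their values were seen. In fits without 1 library, 8 to 23 guidance and adhesion genes were called lower (fewer without Morphine, Metamorphine or Naloxone, more without Control), and 2 to 13 growth factor receptor genes were called lower (fewer without Metamorphine or Naloxone, more without Control). Under the offsets 8 guidance and adhesion genes were called lower, and 3 growth factor receptor genes were called lower. Leaving out 1 library raised the adjusted p to as much as 0.0646 for SEMA3C and 0.185 for ERBB2 without Naloxone of code _0409. The offsets ended the call of SEMA3C (log2 fold change 0.25).

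Of 28 neuronal cytoskeleton and growth cone genes, 6 fell and STMN2, a microtubule regulator of growing axons, rose, with 607 ± 45.1 CPM in code _14.04 and 458 ± 21.8 CPM in code _0409 (log2 fold change 0.41 ± 0.10 SE, adjusted p = 0.0155). The neurofilament NEFH had 19.1 ± 1.81 CPM in code _14.04 and 28.1 ± 2.21 CPM in code _0409 (log2 fold change -0.51 ± 0.10 SE, adjusted p = 0.00603), and MAP1A and KIF5A had log2 fold changes of -0.65 and -0.44. MAPT, which codes tau, had a log2 fold change of -0.49 (adjusted p = 0.0126), but 0.029 with the offsets, where it was not called. The median of this list was -0.21 (-0.034 with the offsets). Its mean difference was 0.015 in Control and -0.21 to -0.11 in the other shared treatments. TUBB3 did not pass the test (log2 fold change -0.24, adjusted p = 0.145). Of 15 granin and neuropeptide genes, 4 rose and 3 fell, with a median of 0.076 (0.11 with the offsets). CHGA, the granule protein chromogranin A, had 337 ± 78.4 CPM in code _14.04 and 713 ± 258 CPM in code _0409 (log2 fold change -0.83 ± 0.20 SE, adjusted p = 0.0129), with its highest value in the Control library of code _0409. SCG2, which codes secretogranin, had 131 ± 4.08 CPM in code _14.04 and 90.6 ± 12.1 CPM in code _0409 (log2 fold change 0.64 ± 0.092 SE, adjusted p = 0.00173), and VIP and CPE had log2 fold changes of 0.93 and 0.44. GAL (0.41, adjusted p = 0.0418) was the fourth that rose, and VGF (-0.67, adjusted p = 0.0353) and PCSK2 (-1.004, adjusted p = 0.0262) fell, these 3 named after their values were seen. As single libraries were dropped, 2 to 12 cytoskeletal genes were called lower (fewer without Metamorphine or Naloxone, more without Control), and 2 to 4 granin and neuropeptide genes were called higher (fewer without Beta-endorphin or Naloxone). Under the offsets 2 granin and neuropeptide genes were called higher. The adjusted p rose past the threshold when 1 library was left out, to as much as 0.0917 for STMN2 without Naloxone of code _0409, 0.0897 for KIF5A, 0.0765 for MAPT, 0.0548 for CHGA and 0.128 for VGF without Naloxone of code _14.04, 0.057 for CPE without Beta-endorphin of code _0409, 0.128 for GAL without Morphine of code _0409, and 0.0996 for PCSK2 without Metamorphine of code _0409. With the offsets STMN2, MAP1A, VIP, CPE and VGF did not pass the test, with log2 fold changes of 0.13, -0.28, 0.59, 0.28 and -0.46.

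Genes of the matrix and of the mesenchymal state moved both ways. Of 28 tested, 10 fell, among them 6 collagen genes, and 6 rose, with a median of -0.32 (-0.16 with the offsets). The mean difference was 0.0997 in Beta-endorphin and -0.54 to -0.24 in the other shared treatments. TNC, the matrix protein tenascin C, had 2.02, 2.32, 2.04, 2.87 and 3.001 CPM in the libraries of code _14.04 and 7.47 to 13.7 CPM, with a median of 10.6 CPM, in code _0409, without overlap (log2 fold change -2.18 ± 0.15 SE, adjusted p = 0.00021). COL4A2, a collagen of basement membranes, had 24.6 ± 4.84 CPM in code _14.04 and 49.1 ± 7.66 CPM in code _0409 (log2 fold change -1.04 ± 0.14 SE, adjusted p = 0.00143). IGFBP5, a secreted binding protein of insulin-like growth factors, had 23.8 ± 4.896 CPM in code _14.04 and 52.6 ± 10.5 CPM in code _0409 (log2 fold change -1.17 ± 0.14 SE, adjusted p = 0.00105), and HSPG2, which codes the matrix proteoglycan perlecan but is outside this list, had 6.43 ± 1.502 CPM in code _14.04 and 15.6 ± 2.17 CPM in code _0409 (log2 fold change -1.36 ± 0.17 SE, adjusted p = 0.00118). The factor TWIST1 rose, with 227 ± 22.1 CPM in code _14.04 and 155 ± 36.6 CPM in code _0409 (log2 fold change 0.74 ± 0.092 SE, adjusted p = 0.00125). With single libraries left out, 2 to 7 matrix and mesenchymal genes were called higher (fewer without Metamorphine, Beta-endorphin or Naloxone). Under the offsets 3 matrix and mesenchymal genes were called higher. COL4A2 did not pass the test under the offsets (log2 fold change -0.35).

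Notch and neurogenic factors had 4 genes higher (17.4%) and 4 lower (17.4%) of 23, against 15.6% and 12.6% of all genes tested. Their median was -0.044 (-0.049 with the offsets). The inhibitors of differentiation ID3, ID2 and ID1 rose, ID3 most, with 121 ± 14.5 CPM in code _14.04 and 69.1 ± 14.3 CPM in code _0409 (log2 fold change 0.87 ± 0.10 SE, adjusted p = 0.00105), and HEY1 rose as well (log2 fold change 0.29, adjusted p = 0.0415). DLK1, a noncanonical Notch ligand, had 227 ± 21.1 CPM in code _14.04 and 418 ± 81.03 CPM in code _0409 (log2 fold change -0.75 ± 0.13 SE, adjusted p = 0.00275), and NOTCH3, JAG2 and NOTCH1 had log2 fold changes of -0.93, -0.88 and -0.99. Among 28 targets of TGF-beta, BMP and Wnt signals, the Wnt inhibitors DKK1 and DKK2 rose, with log2 fold changes of 0.52 (adjusted p = 0.00525) and 0.70 (adjusted p = 0.00574). Of that list 4 rose (14.3%) and 3 fell (10.7%), near the shares of all genes tested. Its median was 0.13 (0.12 with the offsets) and 0.0057 without the Control library of code _0409. ID1, ID2, HEY1 and NOTCH1 were named after their values were seen. Over the fits that leave out 1 library, 1 to 4 Notch and neurogenic genes were called higher (fewer without Morphine, Metamorphine, TRV130 of code _0409, Beta-endorphin or Naloxone), 3 to 7 Notch and neurogenic genes were called lower (more without Control), and 2 to 4 signal targets were called higher (fewer without Metamorphine, TRV130 of code _0409, Beta-endorphin or Naloxone). Under the offsets 2 Notch and neurogenic genes were called lower. When 1 library was left out, calls were lost, with an adjusted p of up to 0.0897 for ID2 and 0.172 for ID1 without Naloxone of code _14.04, 0.19 for HEY1 without Metamorphine of code _0409, and 0.152 for NOTCH1 without Naloxone of code _0409. The offsets ended the calls of HEY1, NOTCH3, NOTCH1 and DKK1, with log2 fold changes of 0.15, -0.42, -0.47 and 0.25.

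Oxidative stress and metal genes were higher in 13 of 23 cases and lower in 1, SLC39A14 (log2 fold change -0.42, adjusted p = 0.0337, named after its values were seen), with a median of 0.48 (0.32 with the offsets). SOD2, the mitochondrial superoxide dismutase, had 82.03 ± 4.57 CPM in code _14.04 and 56.1 ± 8.43 CPM in code _0409 (log2 fold change 0.49 ± 0.10 SE, adjusted p = 0.00658), and catalase, CAT, had 20.5 ± 0.703 CPM in code _14.04 and 15.1 ± 1.75 CPM in code _0409 (log2 fold change 0.5024 ± 0.11 SE, adjusted p = 0.00819). SLC40A1, the iron exporter ferroportin, had a log2 fold change of 0.55, adjusted p = 0.00788, and NQO1, a quinone reductase, had 0.62, adjusted p = 0.00839. Of 20 heat shock genes, 7 rose and none fell, with a median of 0.16 (0.11 with the offsets). HSP90AA1 had 986 ± 158 CPM in code _14.04 and 656 ± 34.6 CPM in code _0409 (log2 fold change 0.56 ± 0.12 SE, adjusted p = 0.00878), and the co-chaperones DNAJA1 and DNAJB4 had log2 fold changes of 0.48 and 0.95. In the unfolded protein response, 2 of 23 rose, SEC61B (0.72, adjusted p = 0.00476) and SDF2L1 (0.46, adjusted p = 0.0152), and HYOU1 fell (-0.68, adjusted p = 0.00318), with a median of 0.0026 (-0.11 with the offsets). These calls were 8.7% and 4.35% of the list, against 15.6% and 12.6% of all genes tested. When each library was left out in turn, 3 to 14 oxidative stress and metal genes were called higher (fewer without Metamorphine or Naloxone), and 3 to 9 heat shock genes were called higher (fewer without Metamorphine or Naloxone). With 1 library left out, calls were lost at an adjusted p of up to 0.157 for SLC39A14, 0.0563 for CAT and 0.058 for NQO1 without Metamorphine of code _14.04, 0.0592 for SLC40A1 without Naloxone of code _14.04, and 0.0598 for HSP90AA1 and 0.0808 for SDF2L1 without Naloxone of code _0409. With the offsets DNAJA1 did not pass the test (log2 fold change 0.19).

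Among protein-coding genes that averaged 10 CPM or more and whose values did not overlap between codes, those with the largest changes in each direction came from several of these groups. The 12 that rose most had log2 fold changes between 0.92 and 1.13. TOMM7, H2AC6, BTG2 and DNAJB4 were described above. CCBE1, which acts in lymphatic vessel growth, had 17.1 ± 1.92 CPM in code _14.04 and 7.39 ± 1.44 CPM in code _0409 (log2 fold change 1.11 ± 0.13 SE, adjusted p = 0.00109). LSM6, part of the RNA decay and splicing Lsm complexes, had 19.5 ± 2.64 CPM in code _14.04 and 10.4 ± 2.61 CPM in code _0409 (log2 fold change 1.06 ± 0.13 SE, adjusted p = 0.00125). EIF4A2, a translation initiation helicase, had 443 ± 29.96 CPM in code _14.04 and 242 ± 17.4 CPM in code _0409 (log2 fold change 0.92 ± 0.10 SE, adjusted p = 0.000856). The others were PIGBOS1, LMO3, PPP1R3B, BEX4 and SNAPC1, with log2 fold changes of 0.96, 0.95, 0.93, 0.92 and 0.92. For these 12, log2 fold changes of code _1109 against the same code _0409 libraries ran from -0.52 for LSM6 to 1.08 for PPP1R3B. BTG2 had 0.74.

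The 12 that fell most included FASN, NGFR and HSPG2, and MAPK15 fell most among them. MAPK15, an atypical MAP kinase, had 3.75 ± 2.01 CPM in code _14.04 and 16.2 ± 7.16 CPM in code _0409 (log2 fold change -1.94 ± 0.30 SE, adjusted p = 0.00218), and CHD5, a chromatin remodeller and tumour suppressor in neuroblastoma, had 9.83 ± 2.36 CPM in code _14.04 and 27.1 ± 3.41 CPM in code _0409 (log2 fold change -1.42 ± 0.15 SE, adjusted p = 0.000701). GAL3ST4, a sulfotransferase, and WDR90 and DNHD1 had log2 fold changes of -1.58, -1.32 and -1.38. MSH5, SAPCD1 and their readthrough MSH5-SAPCD1 overlap one another, so their reads cannot be assigned with certainty, and their log2 fold changes were -1.42, -1.76 and -1.47. Overlap with another gene on either strand applied to 3423 of the 6464 called genes, and the libraries carry no strand information.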

How the data were processed

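RNA was extracted with TRIzol, treated with DNase I, made into libraries without strand information and sequenced in pairs, per the labels' protocols. The submitters' processing notes name FastQC, HISAT2, featureCounts, DESeq2 and GRCh38. The counts deposited by the authors are whole-number reads per gene in 1 table of 18 libraries and 58735 gene IDs; the annotation used for counting is not given in the sources used here. All IDs matched GENCODE 29, which gave exon length, GC content, position and gene type, and 58207 had a symbol.

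Counts of the 12 libraries were filtered (filterByExpr, minimum count 10), scaled by TMM and fitted with edgeR 4.0.16 (robust quasi-likelihood, R 4.3.3) with terms for treatment and code, which left 5 residual degrees of freedom. P-values were Benjamini-Hochberg adjusted over all 22975 genes, with a threshold of 0.05. CPM values use TMM library sizes. Library measures were compared by two-sided exact permutation tests, in which the smallest p is about 0.00253; 7 measures were tested without adjustment. A simulated set of 22468 genes held 50 altered genes at each of several effect sizes. The test found 30% of those altered 1.5-fold, 62% at 2-fold, 88% at 4-fold and 98% at 8-fold. It also called 15 unaltered genes. Far fewer genes were altered there than the 6464 called here. The simulated libraries also had no treatment effect, no outlying library and no trend with exon length or GC content. These figures are therefore not an error rate for the real comparison. Alternatives covered scaling, filtering, the samples in the fit, the treatment term, DESeq2 1.42.0, each library left out, and offsets for length and GC (loess span 0.3).

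The members and lists were chosen with earlier results of these data known. The text names, by rule, the 12 largest changes in each direction among protein-coding genes of at least 10 CPM without overlap, up to 4 called members of each list by p, and identity and opioid receptor genes; a few of these are not reported here, and others are marked as named after their values were seen.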

Additional observations from a re-analysis of the deposited data

Results flagged for a closer look

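The Control library of code _0409 had 20890 reads (4 significant digits) in genes silent in most libraries, far above the other 6 of its code. In 366 comparisons of a named gene's CPM within 1 code, 30 had a highest or lowest library whose gap to its neighbour, as a share of the range, passed Dixon's 95% critical value. For independent groups chance passes it in about 1 of 20, but these comparisons share the same 12 libraries and their genes were selected, so that rate need not hold. The Control library of code _0409 accounted for 10 of these and the Morphine library of code _14.04 for 7. No explanation was tested.

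Within code _14.04, the Morphine library was highest for CHGA (473 CPM), GOLGA8A (40.2 CPM), JAG2 (21.3 CPM) and MSH5 (14.3 CPM), and lowest for GABARAPL1 (21.5 CPM), OIP5-AS1 (107 CPM) and RARB (91.5 CPM). The Control library stood highest for ID1 (20.5 CPM) and NQO1 (12.1 CPM). MXI1 was highest in Metamorphine (89.6 CPM), MKI67 in Beta-endorphin (71.7 CPM) and CACNA1A in Naloxone (0.0345 CPM, which is 1 count).

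Within code _0409, the Control library was highest for ATP5F1E (301 CPM), RPS29 (238 CPM), SNHG8 (46.3 CPM), CACNA1A (12.3 CPM) and VWF (2.99 CPM). It was lowest for FASN (537 CPM), SNAP25 (77.3 CPM), VEGFA (53.1 CPM), MXI1 (41.0 CPM) and RNF2 (20.4 CPM). The first TRV130 library was highest for LENG8 (472 CPM), WDR90 (176 CPM), GOLGA8A (108 CPM), MSH5 (41.4 CPM) and MUC1 (11.8 CPM), and the second for VIP (2.89 CPM). SLC18A1 was highest in Naloxone (43.0 CPM) and MAOB in Beta-endorphin (8.96 CPM).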

How the results depend on the processing

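With each single library left out in turn, 1226 to 4378 genes were called higher and 1053 to 4306 lower, and 101 to 314 were at least 2-fold higher and 382 to 1217 at least 2-fold lower. The counts were lowest, by more than 1.5 times, without Metamorphine or Naloxone of either code: at least 2-fold lower were 480 genes without Metamorphine of code _14.04, 388 without Naloxone of code _14.04, 468 without Metamorphine of code _0409 and 382 without Naloxone of code _0409. When a treatment loses its library in 1 code, its library in the other code no longer informs the comparison, so 4 treatments remain. The number at least 2-fold higher was 137 without the treatment term and 133 with the exon length and GC offsets, against 210; the cause was not tested. The other counts stayed within 1.5 times under RLE scaling, no low-count filter, all 18 libraries, no TRV130 libraries, DESeq2, and without Control and Naloxone of code _0409. The mitochondrial share differed by -5.14 percentage points over the tested genes and by -5.13 over all genes. Across alternatives and the genes eligible to be named, 4167 values kept direction and side of the threshold, 537 lost the call and 4 reversed. Reversed with the offsets were MAPT (0.029), MLXIP (0.047), ULK1 (0.0056) and NR4A1 (0.028), and the median of the chromatin list (0.088). Of the list medians under the alternatives, 787 kept within the spread between treatments and 32 moved beyond it. The treatment term already sets libraries of the same treatment against each other. By the labels' replicate numbers, no paired analysis was possible because, except for TRV130, each number belongs to 1 code. At a depth of 21211449 to 33123855 counts, genes under 1 CPM rest on few reads, and for them a missing call does not show equal levels.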

Other observations

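Several gene groups gave further values. Of 30 chromatin genes, 6 rose and 8 fell, with a median of -0.18 that was 0.088 with the exon length and GC offsets. DNMT1, the maintenance DNA methyltransferase, had 93.1 ± 8.58 CPM in code _14.04 and 155 ± 16.2 CPM in code _0409 (log2 fold change -0.69 ± 0.10 SE, adjusted p = 0.00209), and SMARCA4, the ATPase of the BAF complex, had a log2 fold change of -0.66, adjusted p = 0.00245. The polycomb members RNF2 and EED rose, with log2 fold changes of 0.68 (adjusted p = 0.0023) and 0.61 (adjusted p = 0.00334). Of 31 genes of ribosome biogenesis and the MYC network, 5 rose (16.1%) and 7 fell (22.6%), with a median of 0.037 (0.064 with the offsets). Among them POLR1A, the catalytic subunit of RNA polymerase I, had a log2 fold change of -0.77, adjusted p = 0.00138, and RRP12 had -0.81, adjusted p = 0.00168. NPM1, named after its values were seen, rose (log2 fold change 0.62, adjusted p = 0.00359). In fits without 1 library, 2 to 6 chromatin genes were called higher (fewer without Metamorphine, Beta-endorphin or Naloxone), 2 to 14 chromatin genes were called lower (fewer without Metamorphine, Beta-endorphin or Naloxone, more without Control), 2 to 8 ribosome biogenesis and MYC genes were called higher (fewer without Metamorphine or Naloxone, more without Control), and 4 to 10 ribosome biogenesis and MYC genes were called lower (fewer without Naloxone). Under the offsets 3 chromatin genes were called lower, and 8 ribosome biogenesis and MYC genes were called higher. SMARCA4 and EED did not pass the test under the offsets, with log2 fold changes of -0.038 and 0.23.

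Of 29 lysosome and autophagy genes, 3 rose (10.3%) and 7 fell (24.1%), against 15.6% and 12.6% of all genes tested. Their median was 0.035 (0.0059 with the offsets). GABARAPL2 and GABARAPL1, which code proteins of the autophagosome membrane, had log2 fold changes of 0.63 (adjusted p = 0.0031) and 0.64 (adjusted p = 0.00834). ATG9A had -0.43, adjusted p = 0.0116. Of 29 interferon and antigen presentation genes, 3 rose (10.3%) and 3 fell (10.3%), both under the shares of all genes tested. Their median was -0.0028 (0.059 with the offsets). B2M, the light chain of MHC class I, had 74.05 ± 16.3 CPM in code _14.04 and 50.5 ± 11.8 CPM in code _0409 (log2 fold change 0.64 ± 0.14 SE, adjusted p = 0.00691), and PSMB8 had a log2 fold change of 0.94, adjusted p = 0.0157. Of 19 nuclear long noncoding RNAs, 3 rose (15.8%) and 3 fell (15.8%), near the shares of all genes tested. Their median was -0.13 (-0.0017 with the offsets). MIAT had 24.6, 43.5, 23.1, 35.3 and 28.8 CPM in the libraries of code _14.04 and 76.2 to 103 CPM, with a median of 97.6 CPM, in code _0409, without overlap (log2 fold change -1.65 ± 0.14 SE, adjusted p = 0.000484). KCNQ1OT1 and MALAT1 also fell, with log2 fold changes of -1.04 and -0.73, and OIP5-AS1, SNHG5 and GAS5 rose, with 0.52, 0.69 and 0.57. MALAT1 and GAS5 were named after their values were seen. As single libraries were dropped, 1 to 8 lysosome and autophagy genes were called lower (fewer without Metamorphine or Naloxone). Under the offsets 4 lysosome and autophagy genes were called lower. Leaving out 1 library raised the adjusted p to as much as 0.0611 for ATG9A and 0.087 for PSMB8 without Naloxone of code _14.04, 0.125 for MALAT1 without Control of code _14.04, and 0.0613 for SNHG5 and 0.0956 for GAS5 without Naloxone of code _0409. The offsets ended the calls of ATG9A, B2M, KCNQ1OT1 and GAS5, with log2 fold changes of -0.21, 0.43, -0.54 and 0.31.

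Some genes outside the lists were named after their values were seen. HTR2B, a serotonin receptor, had 10.2, 8.28, 8.25, 10.6 and 10.5 CPM in the libraries of code _14.04 and 2.77 to 4.41 CPM, with a median of 3.95 CPM, in code _0409, without overlap (log2 fold change 1.33 ± 0.17 SE, adjusted p = 0.00125). In the fit with code _1109, its log2 fold change of that code against the same code _0409 libraries was 0.97. SNHG8, a snoRNA host gene, had 73.7 ± 12.6 CPM in code _14.04 and 31.03 ± 7.25 CPM in code _0409 (log2 fold change 1.24 ± 0.13 SE, adjusted p = 0.000843). The ribosomal pseudogene RPL9P7 had 22.5 ± 5.94 CPM in code _14.04 and 5.76 ± 1.305 CPM in code _0409 (log2 fold change 2.06 ± 0.19 SE, adjusted p = 0.000615). LENG8 had 126 ± 46.97 CPM in code _14.04 and 317 ± 73.2 CPM in code _0409 (log2 fold change -1.25 ± 0.19 SE, adjusted p = 0.00216), and GOLGA8A had 23.1 ± 9.801 CPM in code _14.04 and 62.9 ± 20.9 CPM in code _0409 (log2 fold change -1.299 ± 0.21 SE, adjusted p = 0.00265). Neither overlapped between the codes.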
